A study of Mus musculus with 4 samples.

Results

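Diacylglycerol kinases were examined in single-nucleus RNA sequencing of the mouse cerebral cortex, in controls and in mice without a working creatine transporter (CrT), which is encoded by Slc6a8. The set held 8 genes of the family (Dgka, Dgkb, Dgkd, Dgke, Dgkg, Dgkh, Dgki and Dgkz) of 21933 genes in the deposited count matrices. The genes were matched by symbol, and each symbol was found once. The set was selected on earlier results of the same genotype comparison, so its genotype values below are a description. The groups were 2 control libraries (CrT+/y, wild-type males) and 2 CrT-KO libraries (CrT-/y, males with a constitutive deletion of part of Slc6a8 in the whole body). All 4 came from untreated adult C57BL/6J mice, with 1 animal per library and the cortex of the right hemisphere dissected by hand. The knockout was not restricted to any cell type, so no difference can be assigned to a loss of the transporter within the cell in which it was measured.

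Diacylglycerol is a lipid messenger that phospholipase C releases from membrane phosphoinositides downstream of Gq-coupled receptors. It recruits protein kinases C and D, Munc13 proteins at the synapse, and Ras activators. Diacylglycerol kinases phosphorylate it to phosphatidic acid, which ends the diacylglycerol signal, starts the resynthesis of phosphoinositides and yields a second messenger. In the brain the family is known for acting at synapses, where it limits diacylglycerol after receptor activation. The type I enzymes (Dgka, Dgkb and Dgkg) bind calcium through EF hands. The type II enzymes (Dgkd and Dgkh) carry a pleckstrin homology domain. The type III enzyme Dgke has the simplest layout and prefers arachidonate-containing diacylglycerol. The type IV enzymes (Dgkz and Dgki) carry ankyrin repeats and a region like that of the MARCKS protein. Dgkq (type V) and Dgkk (type II) complete the family and were followed as further genes.

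The 4 libraries held 8282 to 9295 nuclei and 51507483 to 65240843 unique molecular identifiers (UMIs, counts of captured RNA molecules), with medians of 5548 to 6700.5 UMIs per nucleus. Of 35694 nuclei, 34219 were kept and given a class from marker genes. The 17 populations below held 13354 control and 13666 CrT-KO nuclei of these. Part of the excitatory and inhibitory nuclei got no layer or subclass name and lay outside them. Pairs of libraries shared 12 to 19 barcodes. The summed markers of each name were higher in every library of its own nuclei than in any library of the others, except for L4/5 IT-like nuclei (2156 to 2506 in counts-per-million units, CPM, against up to 5057) and L5 IT-like nuclei (475 to 525 CPM against up to 540). The defining genes of the L4/5 IT-like (Rorb), L6 IT-like (Osr1) and L6b-like (Ccn2) names were also higher elsewhere. A further 2377 of 8524 inhibitory nuclei carried markers of striatal projection neurons (MSN-like) although the tissue was labelled as cortex. Slc6a8 gave 6.90 and 6.20 CPM in the controls and 1.65 and 1.64 CPM in CrT-KO over all named nuclei, with a log2 fold change of -1.94 (SE 0.15, adjusted p by edgeR 0.00826), so every library matched its label. The mutation removes part of the gene, and the remaining UMIs can come from the rest of the transcript.

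The members differed in gene length and in abundance. Coordinates are of GRCm38. Dgkb (ENSMUSG00000036095, chromosome 12, 37817726 to 38634239, plus strand) spans 816.5 kb and gave 216339 UMIs, with at least 1 UMI in 64.4% of nuclei. Dgki (chromosome 6, 36846022 to 37300184, minus strand) spans 454.2 kb and gave 206103 UMIs in 84.2% of nuclei. These were the most counted members.

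Intermediate counts came from 4 genes. Dgkh (chromosome 14, 78558750 to 78732776, minus strand) gave 66174 UMIs, Dgkg (chromosome 16, 22468461 to 22657221, minus strand) 46228, Dgkd (chromosome 1, 87853287 to 87945180, plus strand) 26942 and Dgkz (chromosome 2, 91932824 to 91975864, minus strand) 25791. Dgke (chromosome 11, 89035179 to 89066850, minus strand) gave 8172 UMIs and Dgka (chromosome 10, 128720134 to 128744855, minus strand) 2379. Every member was counted over its whole gene body, introns included, so a long gene can collect more UMIs than a short gene. Dgka overlaps Pmel and Dgkd overlaps Usp40 on the opposite strand, over 105 and 62 bases. Whether counting used the strand is not given in the sources used here, so UMIs from those stretches are uncertain.

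The first question was where each kinase was expressed. Levels are given as CPM, the UMIs of a gene scaled to all UMIs of that population and library, and between genes as CPM per kb of gene body. Per kb, the leading member over all named nuclei was Dgkz (2.59 CPM per kb), ahead of Dgki (2.02). By raw CPM the order was another, with 39.2% of the summed family level in Dgkb. The leading member per kb was not the same in all cells. Dgkz led in L2/3 IT-like (3.79), L4/5 IT-like, L5 IT-like, L6 IT-like, L6 CT-like and PV-like nuclei and in endothelial cells and pericytes. Dgkb led in MSN-like nuclei (5.20) and astrocytes (3.46), Dgkg in SST-like (3.26) and LAMP5-like nuclei, Dgkd in microglia (2.95) and VIP-like nuclei, and Dgki in oligodendrocytes (2.51) and L6b-like nuclei. Dgkh led in L5/6 NP-like nuclei (2.08) and Dgka in oligodendrocyte precursors (OPCs, 1.51). In OPCs, Dgka had only 34.2 and 40.4 CPM in the controls. Dgkb had 804 and 945 CPM there and held 54.2% of the summed family level. Whether counts scale with gene length was not tested, so the order per kb depends on that division. The margin was under the spread of the libraries in several cases, as for Dgki over Dgkh in L6b-like nuclei (1.88 against 1.81).

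**Figure D1:**
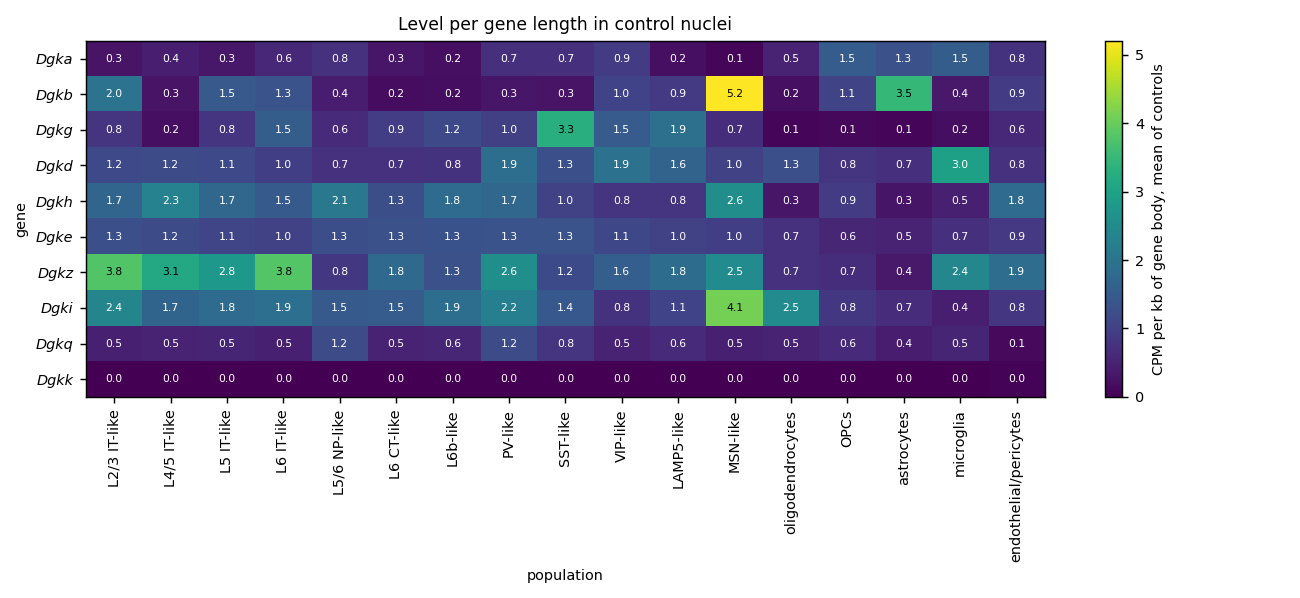
Mean level of the 8 members and of Dgkq and Dgkk in the 2 control libraries, in CPM per kb of gene body, by population (columns) and gene (rows), with the value in each cell and the colour scale from 0. The highest cells are Dgkb (5.2) and Dgki (4.1) in MSN-like nuclei, Dgkz in L2/3 IT-like and L6 IT-like nuclei (3.8), Dgkb in astrocytes (3.5), and Dgkg in SST-like nuclei (3.3).

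Among the type I genes, Dgkb had the widest range. It was highest in MSN-like nuclei, at 4282 and 4214 CPM in the controls, followed by astrocytes with 2886 and 2767 CPM. Next came the intratelencephalic (IT) neurons, which project within the forebrain. L2/3 IT-like nuclei had 1666 and 1577 CPM, L5 IT-like nuclei 1156 and 1222 CPM and L6 IT-like nuclei 1062 and 1114 CPM, and each of these neighbours in the order lay apart from the next. L4/5 IT-like nuclei stood out from the other IT populations with 228 and 206 CPM, a level like that of PV-like (231 and 269.6 CPM) and SST-like nuclei (204 and 246 CPM), whose libraries overlapped.

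The level of Dgkb also divided the deep layers and the interneurons. In L6 CT-like nuclei, whose name stands for corticothalamic neurons, the controls had 145 and 147 CPM, and L6b-like nuclei had 122 and 195 CPM, with overlapping libraries. These were the lowest levels of the 17 populations, together with oligodendrocytes (168 and 197 CPM). VIP-like (779.9 and 919 CPM) and LAMP5-like nuclei (716 and 743 CPM) lay above PV-like and SST-like nuclei with no overlap. OPCs (804 and 945 CPM) and endothelial cells and pericytes (709 and 806 CPM, 48 and 129 UMIs) were in the same range as VIP-like nuclei. L5/6 NP-like (near-projecting) nuclei had 323 and 373 CPM and microglia 284 and 295 CPM.

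Dgkg, the second calcium-binding member, was highest in SST-like nuclei, at 619 and 610.5 CPM in the controls. LAMP5-like nuclei followed at 434 and 294 CPM, then L6 IT-like at 291 and 287 CPM and VIP-like nuclei at 257 and 310.1 CPM, the latter 2 with overlapping libraries. Among IT neurons, L4/5 IT-like nuclei were again the lowest, at 41.2 and 36.2 CPM against 144 and 149 CPM in L2/3 IT-like nuclei. Microglia (31.4 and 38.2 CPM) overlapped with L4/5 IT-like nuclei, and the other glia were lower, with 19.2 and 19.2 CPM in OPCs, 14.2 and 20.5 CPM in oligodendrocytes and 7.56 and 24.8 CPM in astrocytes. In astrocytes 1 and 11 UMIs of Dgkg were counted in the controls against 382 and 1227 of Dgkb, of the same type.

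Dgka, the third type I gene, was the least counted member and was highest outside neurons. The controls had 27.2 and 48.9 CPM in microglia, 34.2 and 40.4 CPM in OPCs and 30.2 and 33.8 CPM in astrocytes. Microglia and OPCs overlapped. At the low end were LAMP5-like (5.60 and 4.59 CPM) and MSN-like nuclei (1.60 and 3.27 CPM, 5 and 12 UMIs). In endothelial cells and pericytes Dgka had 0 and 6 UMIs in the controls, which sets no level.

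Of the type II genes, Dgkd was highest in microglia, with 284 and 258 CPM in the controls and 227 and 294 CPM in CrT-KO. VIP-like (182 and 176 CPM) and PV-like nuclei (176 and 169 CPM) followed. IT neurons of all layers had between 82.2 and 115 CPM, and the 6 lowest populations, from OPCs to astrocytes, overlapped with their neighbours in the order. Dgkh had another distribution, with 469.6 and 422 CPM in the MSN-like population, 396 and 404 CPM in L4/5 IT-like nuclei and 375 and 351 CPM in L5/6 NP-like nuclei. L4/5 IT-like nuclei, low in Dgkb and Dgkg, thus had the highest Dgkh of the IT neurons, above L2/3 IT-like (306 and 287 CPM) and L5 IT-like nuclei (309.6 and 287 CPM). Dgkh was lowest in oligodendrocytes (54.4 and 51.8 CPM) and astrocytes (60.4 and 40.6 CPM).

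The type III gene Dgke had the narrowest range. Its mean in the controls ran from 16.6 CPM in astrocytes to 42.3 CPM in PV-like nuclei, and most neighbours in the order overlapped. All 12 neuronal populations had means of 30.3 CPM or more, and glia and vascular cells had 27.3 CPM or less.

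Of the type IV genes, Dgkz was highest in the IT neurons, with 175 and 153 CPM in L6 IT-like, 160.0 and 166 CPM in L2/3 IT-like and 130.3 and 139.8 CPM in L4/5 IT-like nuclei. The first 2 overlapped. PV-like nuclei had 112 and 109.9 CPM and SST-like nuclei 51.8 and 48.1 CPM. Microglia had 100.4 and 107 CPM, in the range of neurons, while oligodendrocytes, OPCs and astrocytes were between 15.1 and 33.9 CPM.

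Dgki, the other type IV gene, was detected widely and was also highest in MSN-like nuclei, at 1903 and 1827 CPM. Oligodendrocytes came next with 1092 and 1185 CPM, overlapping L2/3 IT-like (1112 and 1047 CPM). PV-like nuclei (1059 and 973 CPM) were the highest of the cortical interneurons, and VIP-like nuclei (363 and 338 CPM) the lowest. Microglia had 209 and 196 CPM. Dgki held 71.7% of the summed family CPM in oligodendrocytes, and Dgkb 84.8% in astrocytes and 61.3% in MSN-like nuclei.

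The further genes Dgkq and Dgkk were low. Dgkq gave 3019 UMIs and was highest in PV-like (28.4 and 27.0 CPM) and L5/6 NP-like nuclei (30.4 and 24.6 CPM), but overlaps Idua over 9342 bases and Tmem175 over 2090, so its counts are uncertain. Dgkk gave 387 UMIs in all. Of these, 183 came from CrT-KO replicate 1, against 80, 56 and 53 in the other named-nuclei sums.

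**Figure D2:**
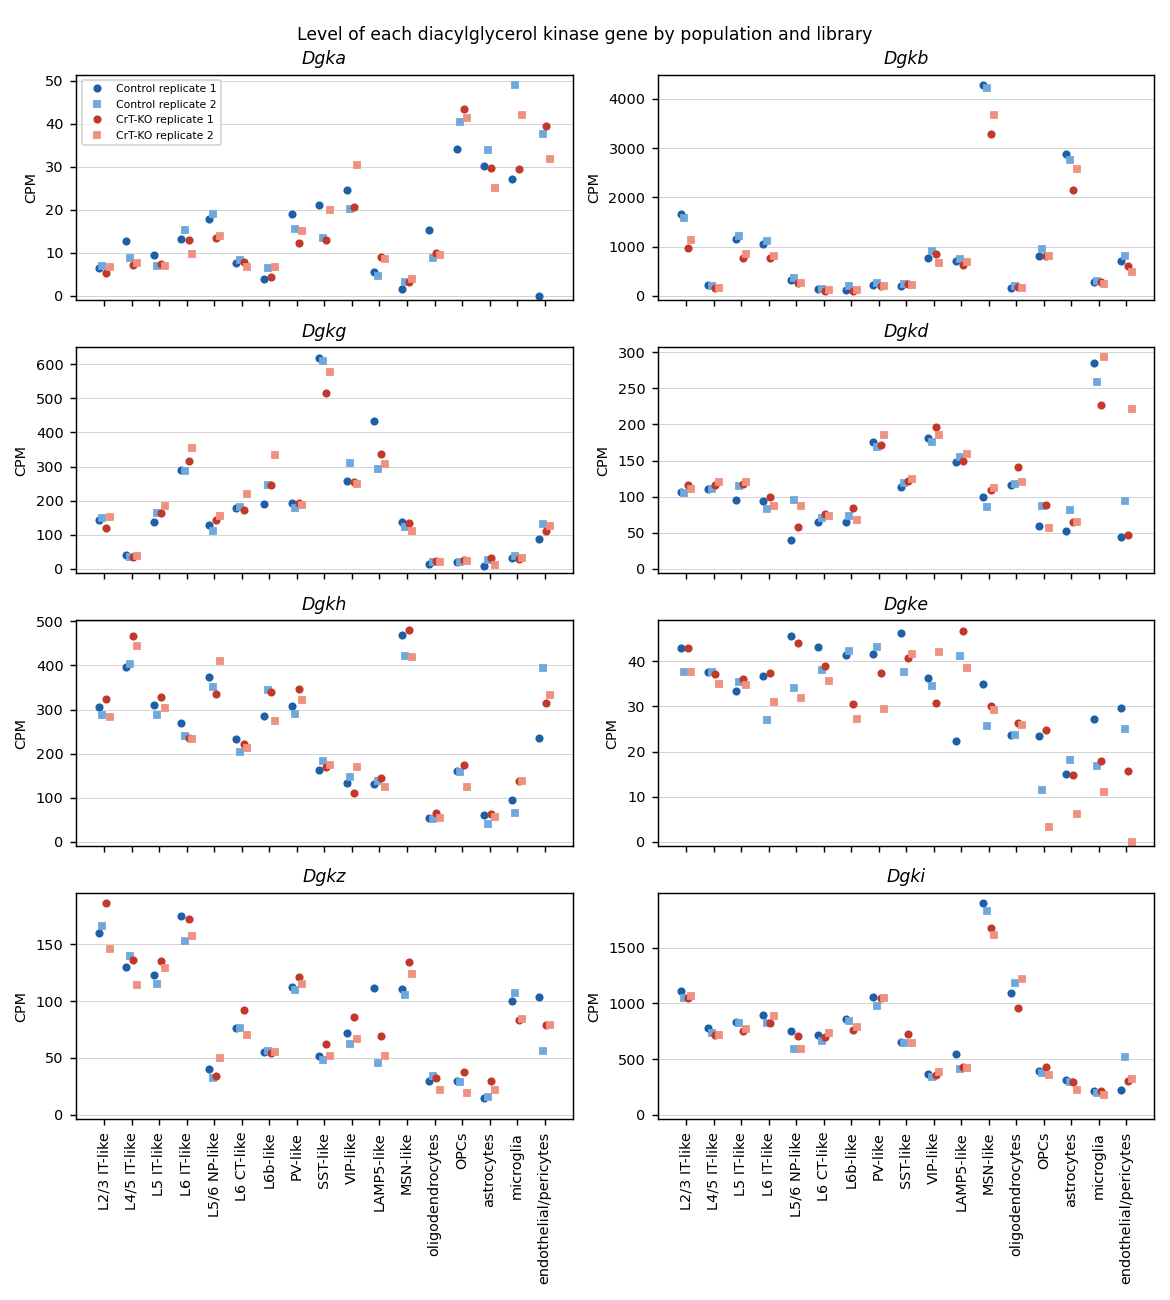
Level of each member (CPM, linear axes from 0) in 17 populations, with 1 point for each library, blue for control and red for CrT-KO. Dgkb and Dgki peak in MSN-like nuclei, Dgkg in SST-like nuclei, Dgkd in microglia and Dgkz in IT-like nuclei, and the red points of Dgkb lie below the blue in L2/3, L4/5, L5 and L6 IT-like nuclei.

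RNA freed from lysed cells can give UMIs in nuclei that do not express a gene. As a gauge, 7 excitatory markers summed to 16.7% to 18.3% of their excitatory level in microglia, 11.3% to 14.2% in oligodendrocytes, 18.4% to 23.9% in OPCs and 8.05% to 10.7% in astrocytes. In microglia Dgkb stood at 31.5% and 33.0% of its excitatory level in the controls. In CrT-KO, where its excitatory level was lower, the shares were 48.0% and 38.9%. The gauge covers RNA of excitatory neurons only, while Dgkb was at 310% to 399% in astrocytes and highest in MSN-like nuclei. How much of the microglial Dgkb is background was therefore not settled by this gauge. Dgki stood at 112% to 140% in oligodendrocytes. Dgkg was at 14.1% to 19.5% in microglia, 7.69% to 12.5% in oligodendrocytes, 9.79% to 12.6% in OPCs and 4.09% to 16.6% in astrocytes, so its glial levels above cannot be told from background. For Dgki in microglia (20.6% to 25.5%) and Dgkh in oligodendrocytes (17.4% to 20.4%) the shares were a little above those of the markers, and how much of them is background was not tested. The median depth was 881 to 1032 UMIs in microglia and 7330.5 to 8848 in excitatory neurons.

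Shares of nuclei followed the same pattern. Each nucleus was thinned to 1000 UMIs, and shallower nuclei were left out (1064 of 13354 in the controls and 1231 of 13666 in CrT-KO over the 17 populations). Of these, 534 and 660 were microglia and 469 and 513 oligodendrocytes. Thinned, Dgkb had a UMI in 93.9% and 92.1% of nuclei in the controls and 90.4% and 91.7% in CrT-KO in the MSN-like population, and in 91.4% and 89.8% of nuclei in the controls and 79.0% and 90.1% in CrT-KO in astrocytes. Low shares were found in L6 CT-like nuclei, at 11.7% and 13.2% of nuclei in the controls and 8.61% and 10.5% in CrT-KO, and in L6b-like nuclei, at 6.92% to 16.5% over the 4 libraries. Dgkg was detected in 51.0% and 47.8% of nuclei in the controls and 41.3% and 44.1% in CrT-KO among SST-like nuclei and in at most 2.42% in astrocytes. Unthinned, the share for Dgkb was at least 98.9% in the MSN-like nuclei of every library, and 50.2% and 54.5% of nuclei in the controls and 47.1% and 46.5% in CrT-KO for L6 CT-like nuclei.

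Across the 17 populations (mean of the controls, log2(CPM + 1)), 6 of 28 pairs of members had a Pearson r above 0.5 and 3 had one below -0.5. The highest were 0.78 for Dgke with Dgkg, 0.68 for Dgke with Dgkh and 0.60 for Dgkh with Dgkz, and the lowest was -0.75 for Dgka with Dgki. Dgkb had no r above 0.04 or below -0.39 with any member. These populations share libraries and differ in depth, so the values are descriptive. Of 11628 genes with 10 CPM in at least 1 population, those most like Dgkb were Mapk4 (0.81), Gabra2 (0.76) and Raver2 (0.74), and those most like Dgkg were Tmem130 (0.92), Slc7a14 (0.92) and Grip2 (0.88). Among the closest to Dgki were Ppp2r2c (0.84) and Prkcz (0.83), and the closest to Dgkz were Ap1s3 (0.94), Prmt8 (0.89) and Terb1 (0.84). The closest to Dgkh were Arhgap20 (0.92), Mark1 (0.92) and Banf2 (0.91), and to Dgke Pacsin1 (0.94), Snhg11 (0.94) and Etl4 (0.93). Dgka was closest to Aldh9a1 (0.91), Phyh (0.87) and Ptpn21 (0.84), and Dgkd to Mtch1 (0.88), Pxk (0.87) and 1700011L22Rik (0.82). With the CrT-KO libraries the r of 1700011L22Rik was 0.36 and that of Banf2 0.59, while Tmem130 kept 0.92.

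The second question was how the genotypes compared. The UMIs of each population were summed within a library, and CrT-KO was compared with control by edgeR's quasi-likelihood test over all genes of the population. The printed CPM are plain shares of UMIs, while edgeR rescaled the libraries to each other (TMM) for the fold changes. A fold change can therefore differ a little from the ratio of the printed CPM, and near 0 also in sign. A gene was called at a Benjamini-Hochberg adjusted p under 0.1. Of the 8 members only Dgkb was called, in 5 of 20 populations: excitatory neurons together and the L2/3, L4/5, L5 and L6 IT-like nuclei. It was lower in CrT-KO in each. This direction and these calls belong to the contrast that chose the set, and the shares of all genes called are printed beside them for scale only. With 2 libraries per genotype, the error rests on the spread between animals of a small group. With so few libraries, the genotypes often do not overlap even where they do not differ. The share of all genes without overlap was not computed for single populations. For values that were not called, a lack of overlap is therefore only a description.

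In excitatory neurons together Dgkb had 903 and 893 CPM in the controls (31747 and 32612 UMIs) and 596 and 643 CPM in CrT-KO (25669 and 22002 UMIs). Both CrT-KO libraries lay below both controls. The log2 fold change was -0.49 (SE 0.07), and the mean of the plain CPM in CrT-KO was 69.0% of that in controls. Of the 13945 genes tested, 0.172% were called. The call was lost without Control replicate 1 (-0.50) or without Control replicate 2 (-0.47).

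The 4 layers of IT-like nuclei were then taken singly. In L2/3 IT-like nuclei Dgkb went from 1666 and 1577 CPM in the controls to 981 and 1136 CPM in CrT-KO, with a log2 fold change of -0.56 (SE 0.08), where 1.21% of all genes were called. In L5 IT-like nuclei it went from 1156 and 1222 to 770.4 and 854 CPM, a log2 fold change of -0.52 (SE 0.09), beside 0.483% of all genes. In L6 IT-like nuclei the values were 1062 and 1114 against 771 and 808 CPM, with a log2 fold change of -0.43 (SE 0.08), beside 0.127%. In all of these the libraries of the genotypes did not overlap. L4/5 IT-like nuclei, with a far lower level, showed 228 and 206 CPM in the controls and 160.0 and 157 CPM in CrT-KO, with a log2 fold change of -0.41 (SE 0.08), beside 0.766%. The L4/5 IT-like call was lost without Control replicate 1 (-0.34) and without CrT-KO replicate 2 (-0.40). The L6 IT-like call was lost without Control replicate 2 (-0.37), CrT-KO replicate 1 (-0.37) or CrT-KO replicate 2 (-0.47). The L2/3 IT-like and L5 IT-like calls did not rest on any single library. The difference in the genotype effect between layers was not tested.

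In the other excitatory populations Dgkb was not called. L5/6 NP-like nuclei had 323 and 373 CPM in the controls and 265 and 271 CPM in CrT-KO, with a log2 fold change of -0.36 (SE 0.14), and 0.0298% of all genes were called there. In L6 CT-like nuclei the values were 145 and 147 against 108 and 131 CPM, a log2 fold change of -0.26 (SE 0.11), beside 0.179% of all genes. The libraries of these populations did not overlap between genotypes. In L6b-like nuclei (122 and 195 against 104 and 129.8 CPM, log2 fold change -0.42 (SE 0.21), 0.0401% of all genes called) they did.

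**Figure D3:**
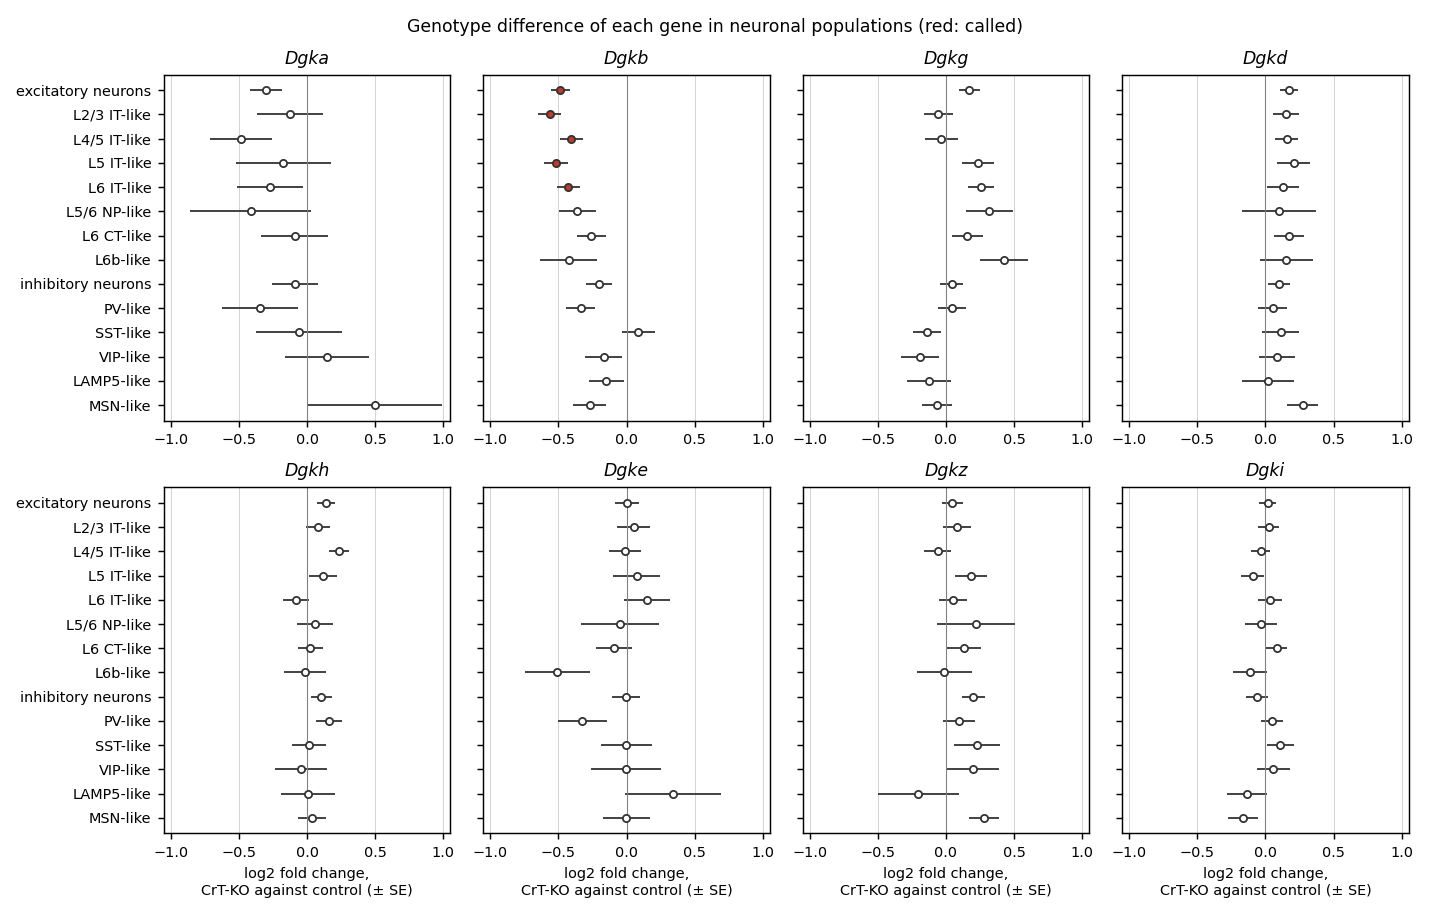
Log2 fold change (CrT-KO against control, horizontal axis, bars ± SE) of each member in excitatory and inhibitory neurons and their 12 populations, where the gene passed the filter on low counts. Red points are called at an adjusted p under 0.1 and are those of Dgkb in excitatory neurons (-0.49) and L2/3, L4/5, L5 and L6 IT-like nuclei, whereas most other points lie within 0.3 of 0.

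Inhibitory neurons together had 1679 and 1848 CPM in the controls and 1479 and 1552 CPM in CrT-KO, with a log2 fold change of -0.20 (SE 0.09) with no overlap and no call, where 0.0543% of all genes were called. MSN-like nuclei, with the highest level, had 4282 and 4214 against 3281 and 3667 CPM and a log2 fold change of -0.27 (SE 0.12) (0.1% of all genes called). PV-like nuclei had 231 and 269.6 against 197 and 198 CPM and -0.34 (SE 0.10) (0.141% of all genes called). LAMP5-like nuclei had 716 and 743 against 627 and 688 CPM and -0.15 (SE 0.13) (0% of all genes called). In these 3 the genotypes did not overlap. They did overlap in VIP-like nuclei (779.9 and 919 against 853 and 673 CPM, 0% of all genes called) and in SST-like nuclei (204 and 246 against 253 and 215 CPM, 0.0811% of all genes called). SST-like nuclei were the exception among the 17 populations, with a log2 fold change above 0, at 0.09 (SE 0.12).

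Outside neurons, astrocytes had 2886 and 2767 CPM in the controls and 2153 and 2566 CPM in CrT-KO, with a log2 fold change of -0.25 (SE 0.15) with no overlap, on 60 nuclei in the smallest library and with 0% of all genes called. Oligodendrocytes (168 and 197 against 184 and 161 CPM, 0.0437% of all genes called), OPCs (804 and 945 against 805 and 804 CPM, 0.0169%) and microglia (284 and 295 against 286 and 250.0 CPM, 0.0411%) overlapped. Endothelial cells and pericytes had 709 and 806 against 598 and 491 CPM, from 31 to 129 UMIs, without overlap and with 0% of all genes called. In all, both CrT-KO libraries lay below both controls for Dgkb in 11 of 17 populations and above in 0. Of 4872 genes with a control mean of at least 10 CPM in each population, 0.86% lay on 1 side in at least 11 and on the other in 0. These genes were not matched to Dgkb for level, and genes with few UMIs can separate less often. The populations share the same libraries, and Dgkb was chosen on this contrast, so the share does not measure how rare its pattern is. Over all named nuclei the values were 1063 and 1109 against 805 and 841 CPM, a log2 fold change of -0.35 (SE 0.06) that was not called by edgeR, beside 0.0267% of all genes.

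Fewer nuclei of Dgkb-rich kinds in CrT-KO could lower a summed level, so sub-clusters were given the same weight in every library. On plain CPM, without edgeR's scaling of the libraries, the excitatory log2 fold change was then -0.48, and shares of sub-clusters alone gave -0.06. In inhibitory neurons these values were -0.19 and -0.05. The edgeR fold changes above are on another scale and cannot be set directly against these. The part of composition in them was not tested. Of 23 excitatory sub-clusters with enough nuclei in each library, both CrT-KO libraries lay below both controls in 17 and above in 0, and the mean was lower in 22. Of 19 inhibitory sub-clusters, 10 lay below and 0 above, and the mean was lower in 16. Sub-clusters share their libraries and are not replicates. The share of all genes with such counts over sub-clusters was not computed, so the counts only describe a gene chosen on this contrast. The Dgk genes had been left out of the genes used for clustering.

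**Figure D4:**
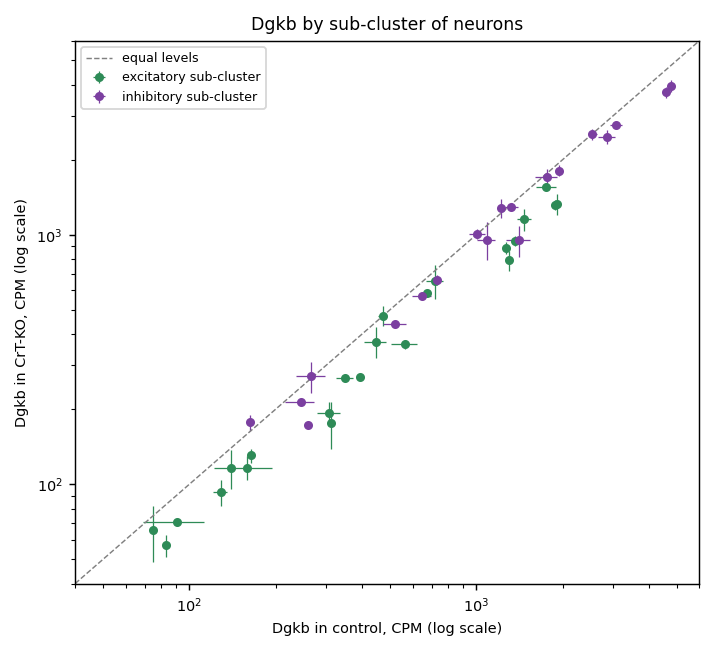
Dgkb level (CPM, log axes) in control (horizontal) and CrT-KO (vertical) in 23 excitatory (green) and 19 inhibitory (purple) sub-clusters. Points are means of 2 libraries, bars run from the lower to the higher library, and the dashed line marks equal levels. Excitatory points lie below the line in 22 sub-clusters and inhibitory points in 16. The sub-clusters share their libraries, and no share of all genes was computed for these counts.

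The share of nuclei with a Dgkb UMI moved in the same direction. At 1000 UMIs per nucleus it was 41.9% and 42.0% of nuclei in the controls and 32.0% and 33.4% in CrT-KO for excitatory neurons and 72.4% and 74.6% of nuclei in the controls and 53.7% and 60.9% in CrT-KO for L2/3 IT-like nuclei. In L5 IT-like nuclei it was 58.1% and 56.3% of nuclei in the controls and 40.8% and 45.3% in CrT-KO. Unthinned shares in L2/3 IT-like nuclei were 99.1% and 98.3% of nuclei in the controls and 96.2% and 96.5% in CrT-KO. Markers of other cell types within excitatory neurons were similar in the libraries. The 14 inhibitory markers found summed to 564 to 589.8 CPM in the controls and 581 to 611 CPM in CrT-KO, and the 14 astrocyte markers to 920.5 to 1023 and 916 to 943 CPM. Their part in the Dgkb values was not tested.

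The other 7 members were not called in any of the 20 populations by edgeR. In the 15 populations where no member was called, 14 of 110 member tests, those of Dgkb included, had an unadjusted p under 0.05 (12.7%, against 5.69% of all gene tests there). DESeq2 called 1 there (Dgkb over all named nuclei). Over all 20 populations, Dgkb had 11 tests under 0.05, its 5 calls among them. The other members had 0 (Dgki) to 3 (Dgkd and Dgkh). The summed populations contain the single ones, so these tests are not independent. The members were chosen on this contrast and the share of 12.7% includes Dgkb, so it describes the set and is no result about the other 7 members. The median log2 fold change over the 8 members was 0.03 in excitatory neurons, where that over all genes was 0.00, and 0.02 in inhibitory neurons, where that over all genes was also 0.00.

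Among the type I genes, Dgkg was 185 and 197 CPM in control and 197 and 218 CPM in CrT-KO excitatory neurons, a log2 fold change of 0.17 (SE 0.08) without a call. Its highest value was in L6b-like nuclei, with 191 and 245 against 245 and 333 CPM and 0.42 (SE 0.18), where the libraries overlapped. In L6 IT-like nuclei the libraries did not overlap (291 and 287 against 316 and 355 CPM, 0.25 (SE 0.10)). In SST-like nuclei, its main site, CrT-KO lay below (619 and 610.5 against 517 and 578 CPM, -0.14 (SE 0.10)). Dgka was 9.82 and 10.1 CPM in control and 7.80 and 7.83 CPM in CrT-KO excitatory neurons, a log2 fold change of -0.30 (SE 0.12) from 268 to 369 UMIs per library.

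The type II gene Dgkd lay in the opposite direction. In excitatory neurons it was 106 and 104 CPM in the controls and 115 and 114 CPM in CrT-KO (0.18 (SE 0.07)). Both CrT-KO libraries were above both controls in 8 of 17 populations and below in 0. These populations share the same libraries, and of 4872 genes with a control mean of at least 10 CPM in each, 4.13% lay on 1 side in at least 8 and on the other in 0. Those genes were not matched to Dgkd for level. The largest value was 0.27 (SE 0.11) in MSN-like nuclei (99.6 and 85.8 against 109.7 and 112 CPM). Dgkh was 300.1 and 292 against 324 and 306 CPM in excitatory neurons (0.14 (SE 0.06)). In L4/5 IT-like nuclei, where it was highest among IT neurons, Dgkh was 396 and 404 against 466 and 445 CPM (0.23 (SE 0.07)), with no overlap.

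The largest difference of any member upward was Dgkh in microglia, at 94.1 and 65.8 CPM in the controls and 137 and 137 CPM in CrT-KO. It rested on 45, 43, 84 and 75 UMIs in the order of the libraries, with a log2 fold change of 0.81 (SE 0.22) and no call. In CrT-KO this was 42.4% and 44.7% of the excitatory level of Dgkh, against 31.4% and 22.5% in the controls.

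Dgke and the type IV genes moved little. Dgke was 40.0 and 35.0 against 38.2 and 34.5 CPM in excitatory neurons (0.00 (SE 0.09)), with its lowest neuronal value in L6b-like nuclei (41.3 and 42.2 against 30.6 and 27.2 CPM, -0.51 (SE 0.24), from 36 to 48 UMIs per library). Dgki was 906 and 858 against 855 and 870.2 CPM (0.02 (SE 0.06) after edgeR's scaling). Its libraries overlapped and its error was small, although it had about as many UMIs as Dgkb. In MSN-like nuclei Dgki was 1903 and 1827 against 1675 and 1618 CPM (-0.16 (SE 0.11)), and in oligodendrocytes 1092 and 1185 against 960.5 and 1216 CPM (-0.08 (SE 0.13)). Dgkz was 126 and 125 against 135 and 115 CPM in excitatory neurons (0.04 (SE 0.08)), 98.7 and 82.8 against 106 and 99.1 CPM in inhibitory neurons (0.20 (SE 0.09)) and 111 and 105 against 134 and 124 CPM in MSN-like nuclei (0.28 (SE 0.11)). Of the further genes, Dgkq in L5/6 NP-like nuclei was 30.4 and 24.6 against 13.5 and 6.36 CPM, from 22, 18, 11 and 5 UMIs, without a call.

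The rest of the diacylglycerol pathway was followed with 85 genes in 7 lists: phospholipases C, Gq-coupled receptors and G proteins, diacylglycerol effectors, diacylglycerol lipases and acyltransferases, enzymes that make or remove phosphatidic acid, phosphoinositide resynthesis, and Dgkq and Dgkk. In excitatory neurons 82 were tested, and 0 were higher and 1 lower in CrT-KO (1.22% called, against 0.172% of all genes). In L2/3 IT-like nuclei 70 were tested, and 1 was higher and 4 lower (7.14%, against 1.21%). In L5 IT-like nuclei 60 were tested, and 1 was higher and 1 lower (3.33%, against 0.483%). The lists were chosen with earlier results of these data known, and each share rests on few called genes. These shares are therefore a description and no test of the pathway. In the other 17 populations edgeR called 0, with 74 of 977 tests at an unadjusted p under 0.05 (7.57%, against 6.08% of all gene tests), and DESeq2 also called 0. The median log2 fold change of the 85 genes that were tested was -0.03 in excitatory neurons and 0.02 in L2/3 IT-like nuclei, beside 0.00 and -0.01 over all genes.

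The effector list held the clearest member, Prkd1, the diacylglycerol-activated protein kinase D1. In L2/3 IT-like nuclei Prkd1 fell from 116 and 93.3 CPM in the controls to 52.1 and 56.6 CPM in CrT-KO, with a log2 fold change of -0.89 (SE 0.11, adjusted p by edgeR 6.755e-05). The libraries did not overlap. In excitatory neurons together Prkd1 fell from 87.8 and 84.4 to 64.4 and 63.0 CPM, with a log2 fold change of -0.38 (SE 0.07, adjusted p by edgeR 0.0881), and this call was lost without Control replicate 1 (-0.38), without Control replicate 2 (-0.39), without the filter on low counts (-0.39) and with doublets kept (-0.38). In L6 IT-like nuclei Prkd1 was 128 and 132 against 91.8 and 100.4 CPM, with a log2 fold change of -0.40 (SE 0.11, adjusted p by edgeR 0.327). The other 13 effectors tested in L2/3 IT-like nuclei were not called. Outside neurons, Unc13c, a synaptic Munc13 gene named here after its values were seen, was 484 and 336 CPM in control and 113 and 169 CPM in CrT-KO astrocytes (64, 149, 38 and 54 UMIs), with a log2 fold change of -1.47 (SE 0.25, adjusted p by edgeR 0.111). It was not called, nor was it called by DESeq2 or with the replicate block. Variants of the edgeR fit on the same libraries, such as RLE factors or no low-count filter, called it. Its log2 fold change ran from -1.81 to -1.18 over the 11 alternative settings.

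From the list of receptors and G proteins, Adra1b, an adrenergic receptor that couples to Gq, fell from 17.1 and 15.1 to 10.3 and 6.58 CPM in L2/3 IT-like nuclei, with a log2 fold change of -0.85 (SE 0.20, adjusted p by edgeR 0.0501), on 130, 115, 85 and 43 UMIs. In L5 IT-like nuclei Adra1b fell from 51.6 and 48.7 to 31.5 and 30.2 CPM, with a log2 fold change of -0.67 (SE 0.17, adjusted p by edgeR 0.0845). Without CrT-KO replicate 1 the L2/3 IT-like call of Adra1b held (-1.22). Without Control replicate 1 (-0.77), Control replicate 2 (-0.91) or CrT-KO replicate 2 (-0.59) it was lost, and the L5 IT-like call was lost when any 1 of the 4 libraries was left out (-0.71 to -0.63). DESeq2, the unfiltered fit, doublets kept and resolution 2.0 also ended the L5 IT-like call (-0.68 to -0.66).

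The list of phosphoinositide resynthesis held a gene that rose and a gene that fell. Pip5k1b, a kinase that makes phosphatidylinositol bisphosphate, the substrate of phospholipase C, rose from 234 and 252 to 302 and 305 CPM in L2/3 IT-like nuclei, with a log2 fold change of 0.37 (SE 0.09, adjusted p by edgeR 0.0501). In L5 IT-like nuclei Pip5k1b rose from 65.1 and 53.0 to 73.0 and 107 CPM, with a log2 fold change of 0.63 (SE 0.15, adjusted p by edgeR 0.0727). The first call was lost without Control replicate 1 (0.30) or CrT-KO replicate 2 (0.35), and the second without Control replicate 2 (0.49) or CrT-KO replicate 2 (0.32). DESeq2, the unfiltered fit, doublets kept and resolution 2.0 also ended the second (0.48 to 0.67). Pitpnc1, a phosphatidylinositol transfer protein, fell from 31.7 and 39.1 to 23.0 and 23.1 CPM in L2/3 IT-like nuclei, with a log2 fold change of -0.57 (SE 0.14, adjusted p by edgeR 0.0684), and was not called without Control replicate 2 (-0.38), without CrT-KO replicate 1 (-0.55), with doublets kept (-0.45) or at cluster resolution 2.0 (-0.55). No phospholipase C, diacylglycerol lipase or acyltransferase, or enzyme of phosphatidic acid was called in any population.

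**Figure D5:**
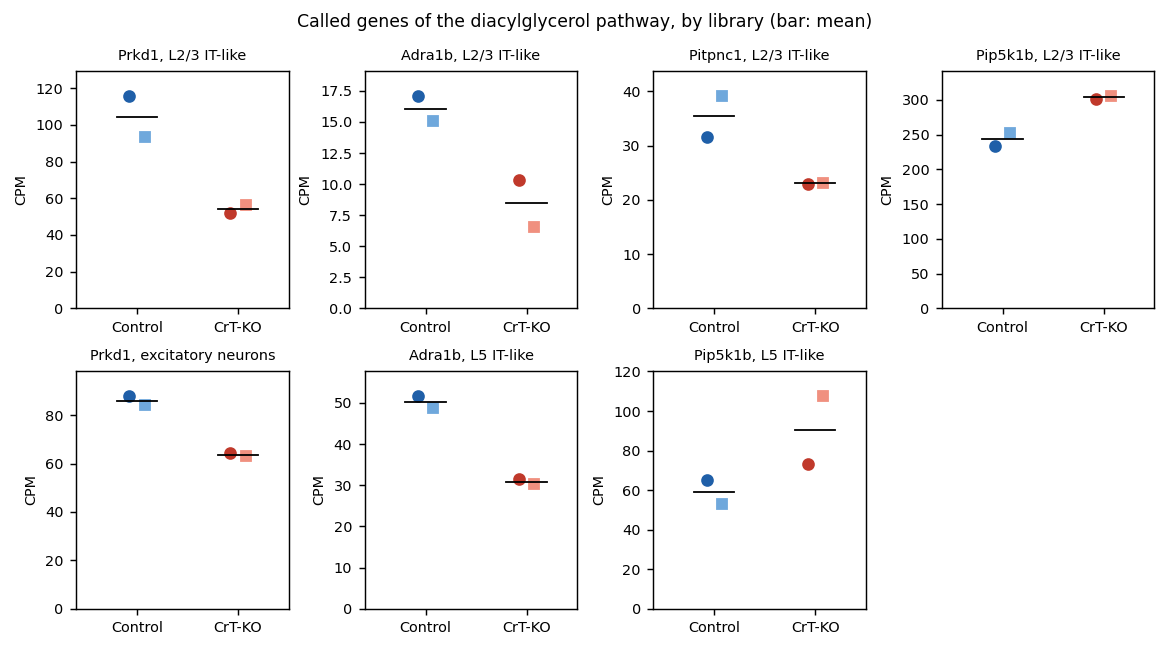
Level (CPM, linear axes from 0) of called pathway genes in each library, blue for control and red for CrT-KO, with bars for the means of 2 libraries. In every panel the genotypes do not overlap, and Pip5k1b is the gene that is higher in CrT-KO, at 302 and 305 against 234 and 252 CPM in L2/3 IT-like nuclei.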

How the data were processed

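Nuclei were sorted by flow cytometry and sequenced with a 10x Genomics 3′ kit. The authors deposited counts of UMIs per gene and nucleus, made with Cell Ranger 3.1.0 on mouse GRCm38 (mm10), in which each gene body was treated as a single exon. Introns therefore entered, and long genes collect more UMIs. The submitters' notes also name FastQC and Seurat 3.1.4. No cell types were used from the authors.

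Doublets (1213) were marked per library by Scrublet in scanpy 1.11.5 and removed. Counts were scaled to 10000 per nucleus, logged, and clustered (3000 variable genes, 30 components, 20 neighbours, Leiden resolution 1.0, igraph 0.11.9) without the 10 Dgk genes, Slc6a8, and sex-linked and mitochondrial genes used for checks. A cluster took the class of its best marker score if it held 20 nuclei, if 3 markers of that class were seen in 10% of these, and if its 10 leading genes held as many markers of that class as of any other, or more. Excitatory and inhibitory nuclei were clustered again for layers and subclasses. The thresholds were chosen with the matrices in view, and 262 nuclei stayed without a class. Excitatory and inhibitory nuclei in sub-clusters without a layer or subclass name entered no population of a layer or subclass. The names are rebuilt, and differences from the study can come from that.

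UMIs were summed per library and population with at least 20 nuclei in each library, and tested with edgeR 4.0.16 (TMM, filterByExpr, quasi-likelihood, R 4.3.3). SE is the log2 fold change over the root of F. The study's threshold of 0.1 was kept, but sums per animal replaced its test on single nuclei. The filter on low counts kept 150 of 160 tests of members in populations. Tests were checked on simulated data. Members, markers and lists were chosen with earlier results of these data known. Named genes were the family, Slc6a8, called pathway genes, and the 3 genes most like each member, except 2 genes that are not reported here. Coordinates are from GENCODE vM21. Protein sequences were not analysed here. Alternatives were DESeq2 1.42.0, RLE factors, no low-count filter, a block for the replicate number, leaving out 1 library at a time, keeping doublets, at least 1000 UMIs and under 5% mitochondrial, resolution 2.0, and a threshold of 0.05.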

Additional observations from a re-analysis of the deposited data

Results flagged for a closer look

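In 5 members besides Dgkb and Dgkd, both CrT-KO libraries lay on 1 side of the controls in some populations and on the other side in fewer. None of these differences between populations was tested, and none of the values was called. The genotypes overlapped in most of the 17 populations, in 10 for Dgka and Dgkz, 11 for Dgke, 12 for Dgkg and 13 for Dgkh. The share of all genes with such counts was not computed, so the counts have no scale. Values are log2 ratios of the mean CPM of CrT-KO over control. Dgka lay above the controls in OPCs (0.1841, from 13 to 21 UMIs per library) and in LAMP5-like nuclei (0.7909, from 2 to 6 UMIs per library), against 5 populations below. Dgke lay above in oligodendrocytes (0.1409), against 5 below. Dgkg lay below in SST-like (-0.1677) and VIP-like nuclei (-0.1709), against 3 above. Dgkh lay below in L6 IT-like nuclei (-0.1217), against 3 above. Dgkz lay below in microglia (-0.3093, from 46 to 70 UMIs per library) and in L6b-like nuclei (-0.0335), against 5 above.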

How the results depend on the processing

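No fold change of a member that was called reversed. Of 1651 member values under alternatives, 1524 moved by less than the SE of the main edgeR fold change and 127 by more, 115 of them when a library was left out. The values with equal weights of sub-clusters among these were on plain CPM. Over all named nuclei, where no member was called, Dgkb alone was called (1) by DESeq2, without the low-count filter and with the replicate block, and leaving out a library gave 0 to 1 (called without Control replicate 1 and without CrT-KO replicate 2). Over all genes there, DESeq2 called 58 of 9765, the unfiltered fit 24 of 18669 and the block 460 of 14999. The main fit called 4 of 14999. In excitatory neurons, with 1 called, the replicate block called 3 (Dgkb, Dgkd and Dgkg), and leaving out a library gave 0 to 1. The block called 839 of all 13945 genes in excitatory neurons, against 24 in the main fit. In inhibitory neurons and oligodendrocytes the count was 0 in every setting.

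The Dgkb call held in L2/3 IT-like nuclei in 11 of 11 alternatives, in L5 IT-like nuclei in 10 (lost without the filter), in excitatory neurons in 9, in L4/5 IT-like nuclei in 8 and in L6 IT-like nuclei in 6 (lost with DESeq2 too). Resolution 2.0 ended the calls in L4/5 IT-like (-0.37) and L6 IT-like nuclei (-0.36), as did a threshold of 0.05. With the block, PV-like nuclei gave a call (-0.33). The 5 pathway genes called in any population became 3 with DESeq2, 9 without the filter, 17 with the replicate block and 2 at 0.05, and 5 to 11 when a library was left out. The count over all genes changed with the setting too, as with the block from 24 to 839 in excitatory neurons. A higher count of pathway genes is therefore no result about the pathway. DESeq2 gave Adra1b and Pitpnc1 no adjusted p in L2/3 IT-like nuclei. Of the 5 genes, Prkd1 in L2/3 IT-like nuclei was called in all these settings.

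Replicate numbers gave no shared animal. Deviations of same-numbered libraries correlated at 0.116 to 0.197 in the 4 largest sums, with 2 pairs. With the block, the count over all genes went up in excitatory neurons (24 to 839) and in L2/3 (139 to 590), L4/5 (85 to 144), L5 (45 to 88) and L6 IT-like nuclei (13 to 187). DESeq2 called 72, 81, 44, 4 and 2 in these populations. With 2 libraries per genotype, changes under the spread between animals, and levels on few UMIs such as those of Dgka and Dgke in small populations, could not be told apart at this depth. Levels taken in CrT-KO in place of control moved by at least the SD of the 2 control libraries for 91 of 160 values. An SD of 2 libraries is itself uncertain. The share over all genes was not computed, so this count has no scale and shows no shift of levels with genotype.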
